A study of Homo sapiens with 12 samples.

Results

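The genes described here encode the protein subunits of the mitochondrial respiratory chain, complexes I to IV, and of ATP synthase. They were chosen by name: a gene was taken if its single symbol in the platform annotation began with one of the family prefixes (NDUFA, NDUFB, NDUFC, NDUFS and NDUFV for complex I, UQCR for complex III, COX4 to COX8 for complex IV, ATP5F, ATP5M and ATP5P for ATP synthase) or was an SDH subunit of complex II. The rule left out the assembly factors named NDUFAF and the complex IV gene COX6A1. It found 66 of the 11963 genes with a single symbol. Of these, ATP5MC2P1 is a pseudogene and NDUFB2-AS1 an antisense RNA, which leaves 64 subunit genes. COX6A2 and COX7A1, the muscle-type isoforms of complex IV subunits, lay at or next to the lowest value of the table on all 12 arrays and were not tested. The 62 tested subunits were 28 of complex I, 3 of complex II (SDHA, SDHC and SDHD), 6 of complex III, 10 of complex IV and 15 of ATP synthase. ATP5MC2P1 was tested as well, lay near the array median, and passed the threshold in none of the 3 comparisons with scramble.

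All cells were LNCaP, a human prostate cancer cell line with a luminal, androgen-responsive phenotype, which the labels give as prostate cancer of early stage. One of 3 microRNAs had been transfected into them, miR-130a, miR-203 or miR-205, and the controls had received a scramble sequence. Total RNA was put on expression arrays, 3 per group. Transfection itself is shared by all groups, the scramble control included. The labels name the 3 arrays of a group biological replicates. They give neither the dose, the form or arm of the microRNA nor the time after transfection, and no culture batch. The p-values therefore weigh each difference only against the spread between these arrays within their groups.

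In the respiratory chain, complex I takes electrons from NADH and complex II from succinate, ubiquinone carries them to complex III, cytochrome c carries them on to complex IV, and complex IV passes them to oxygen. Complexes I, III and IV pump protons as the electrons move, and ATP synthase lets the protons return through its membrane ring to make ATP. Most subunits are encoded in the nucleus, as all members here are, while a small catalytic core is encoded by mitochondrial DNA. A microRNA pairs with its target mRNAs mainly through its seed, the bases near its 5′ end, and lowers their level or translation.

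Seed matches in the subunit mRNAs were not searched here. The mature sequences below belong to 2 of the microRNAs that the labels name, while the form the cells received is not given. They are from RefSeq (GRCh38.p14), 5′ to 3′, with the seed (bases 2 to 8) in capitals, and the arms are those usually meant by these names, since the labels name no arm. The mature sequence of miR-130a was not used here.
hsa-miR-203a-3p: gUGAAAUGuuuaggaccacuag
hsa-miR-205-5p: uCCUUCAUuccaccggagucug
The miR-203a-3p sequence lies on chr14:104117469-104117490 (plus strand) and the miR-205-5p sequence on chr1:209432166-209432187 (plus strand). Their seeds differ.

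The 12 arrays share one log2 scale from 2.36 to 13.95, with medians between 2.76 and 2.78. Pairs of arrays of one group correlated at 0.992 to 0.997 over the 6821 genes tested, and pairs of different groups at 0.964 to 0.986. All 9 named luminal prostate markers lay above the array median on all 12 arrays, with a mean of 7.65 to 7.74 in miR-203 and 8.05 to 8.17 in scramble. The part of this lower marker level in the miR-203 differences was not tested. Most markers of other cells were at background: 4 of 5 basal, 4 of 5 neuroendocrine, 5 of 7 fibroblast and smooth muscle, and 5 of 5 leukocyte and endothelial markers lay above the median on no array. The 3′ minus 5′ control signal is a measure of RNA integrity. For GAPDH it ranged from 0.56 to 0.90 in scramble and 0.72 to 0.74 in miR-130a. It ranged from 0.74 to 0.80 in miR-203 and 0.60 to 0.73 in miR-205. The range of each microRNA lay within that of scramble. Every miR-203 array, however, lay above every miR-130a and miR-205 array. For ACTB the ranges of all groups overlapped. The part of this GAPDH difference in the subunit differences was not tested.

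Most subunit differences from scramble were under 0.25 log2 in size, and 11 of the 33 subunits that changed did so with more than 1 microRNA. A gene is said below to rise, fall or change where its adjusted p was under 0.05 in limma's moderated test, adjusted by Benjamini-Hochberg over all 6821 genes tested. Differences are given in log2 with their standard error (SE) from that model, and every group has 3 arrays. In bulk RNA, fewer cells with an mRNA and less of it per cell cannot be told apart. Against scramble, 29 of the 62 subunits changed with none of the 3 microRNAs, 22 with 1, 9 with 2 and 2 with all 3. Differences were under 0.25 in size for 55 subunits with miR-130a, 51 with miR-203 and 53 with miR-205, and over 0.5 for 0, 3 and 2. Shares of all genes at these sizes, or changed with more than 1 microRNA, were not counted. These counts therefore describe the subunits alone and set no contrast with other genes. The moderated F-test found a difference among the 4 groups for 38 of 62 subunits (61.3%), where 60.8% of all genes passed, so the share of changed subunits was that of the array as a whole. What varied was the direction, and all 3 comparisons share the same 3 scramble arrays.

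**Figure D1:**
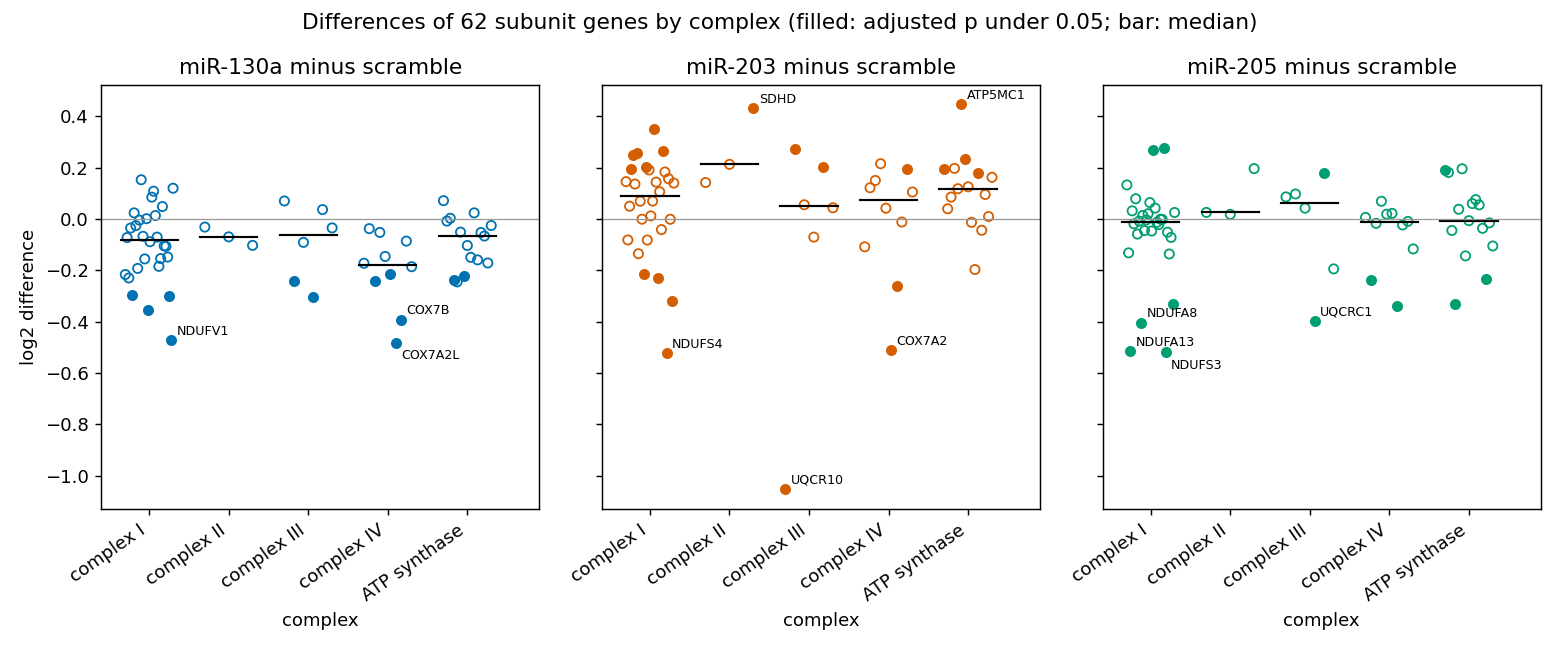
Log2 difference from scramble of each of the 62 subunit genes, by complex (horizontal axis), for miR-130a, miR-203 and miR-205. Filled points passed an adjusted p of 0.05 and bars are medians: no filled point lies above 0 for miR-130a, while miR-203 has 14 above and 7 below, among them UQCR10 at -1.05.

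With miR-130a, 12 subunits fell and 0 rose. At an unadjusted limma p under 0.05, 21 were lower and 0 were higher, and 0 rose under any alternative that was run. The falls were small, from -0.21 to -0.48, and lay in complexes I, III and IV and ATP synthase. The 12 are 19.4% of the 62, where 23.6% of all genes were called, 11.6% lower and 12% higher. The number of changed subunits was therefore not above the background, but the calls ran one way: 49 of 62 differences were below 0, with a median of -0.09 against -0.01 over all genes. The miR-130a and scramble arrays did not overlap for 25 subunits (40.3%, against 39.2% of all genes). Without miR-130a replicate 1, 5 subunits fell, without miR-130a replicate 3, 4 fell, and without scramble replicate 3, 6 fell.

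COX7A2L, which helps join complexes III and IV into supercomplexes, had the largest difference with miR-130a. Its log2 values were 7.62, 7.32 and 7.67 in scramble and 6.92, 7.09 and 7.14 with miR-130a (-0.48 ± 0.09 SE, adjusted p = 0.00233). Every miR-130a array lay below every scramble array. NDUFV1, the complex I core subunit that binds NADH, had values of 8.39, 8.26 and 8.17 in scramble and 7.73, 7.93 and 7.76 with miR-130a (-0.47 ± 0.10 SE, adjusted p = 0.00434). Here too the groups did not overlap.

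COX7B, a small accessory subunit of complex IV, had values of 10.05, 10.16 and 10.07 in scramble and 9.84, 9.71 and 9.55 with miR-130a (-0.39 ± 0.08 SE, adjusted p = 0.00309). The miR-203 arrays, at 10.08, 10.05 and 10.10, and the miR-205 arrays, at 10.08, 10.002 and 10.12, lay in or next to the scramble range, and miR-130a stood below both (-0.38 against miR-203, adjusted p = 0.00185, and -0.37 against miR-205, adjusted p = 0.00288). NDUFB2, an accessory subunit of complex I's membrane arm, had values of 8.97, 8.81 and 8.94 in scramble and 8.62, 8.51 and 8.54 with miR-130a (-0.35 ± 0.08 SE, adjusted p = 0.0075), with no overlap. These 4 falls passed the threshold under all 23 alternative settings.

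The 8 other falls were each lost under at least 1 setting. In complex I they were NDUFA3, an accessory subunit, at -0.30 and NDUFS7, a core subunit that holds an iron-sulfur cluster, at -0.30. In complex III they were UQCRC1, a core protein, at -0.30 and UQCR11, a small subunit, at -0.24. In complex IV they were COX5B at -0.24 and COX7A2 at -0.21, both accessory subunits. In ATP synthase they were ATP5F1D, the delta subunit of the F1 stalk, at -0.24 and ATP5MC2, which encodes the proton-carrying c subunit, at -0.22. Leaving out miR-130a replicate 1 or miR-130a replicate 3 ended all 8 calls, and the adjusted p values that missed reached 0.175 without the first of these arrays and 0.13 without the other. Removing scramble replicate 3 ended those of COX5B, COX7A2, NDUFS7, UQCRC1, UQCR11 and ATP5F1D (adjusted p up to 0.19). Removing scramble replicate 2 ended those of NDUFS7, UQCRC1, ATP5MC2 and ATP5F1D (up to 0.174). Removing miR-130a replicate 2 ended those of UQCRC1, COX7A2 and ATP5F1D (up to 0.0763), and removing scramble replicate 1 those of UQCR11 and COX7A2 (up to 0.0963). COX7A2 was also lost without miR-203 replicate 2 or 3 or any single miR-205 array, ATP5F1D without miR-203 replicate 2 or any single miR-205 array, and UQCR11 without miR-203 replicate 2 or miR-205 replicate 3 (adjusted p up to 0.0645). Averaging over probe sets gave -0.13 for COX5B (adjusted p = 0.0709) and -0.11 for ATP5MC2 (adjusted p = 0.094). The other ATP5MC2 probe set stayed at the lowest value, 2.36, which by itself shrinks the average. A COX5B probe set near that value, at 2.42, entered its average too, while its other bright ones gave -0.14 and -0.15.

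Complex IV had the lowest median with miR-130a, -0.18, with all 10 tested subunits below 0 and 4 of them called. Its mean over subunits, taken on each array relative to the scramble mean, was between -0.22 and -0.16 on the miR-130a arrays and between -0.05 and 0.03 on the scramble arrays. The medians of the other complexes with miR-130a were -0.08 (complex I, 4 of 28 fell), -0.07 (complex II, 0 of 3), -0.06 (complex III, 2 of 6) and -0.07 (ATP synthase, 2 of 15). COX6A1, the complex IV subunit outside the rule, also fell with miR-130a (-0.40 ± 0.13 SE, adjusted p = 0.037).

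**Figure D2:**
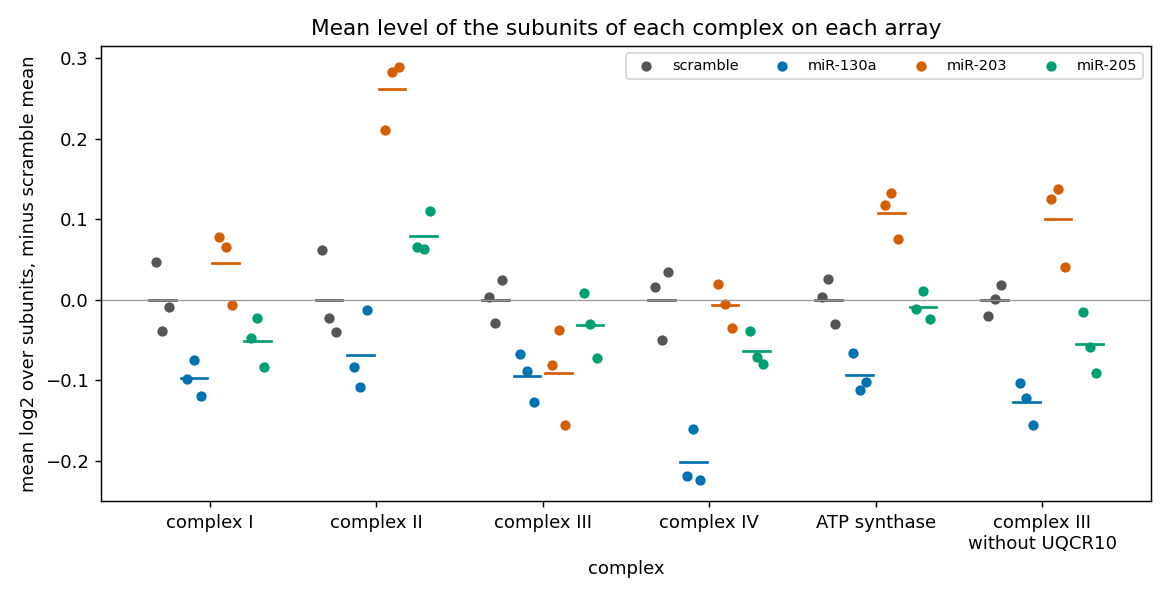
Mean log2 level over the tested subunits of each complex on each array, minus the mean of the 3 scramble arrays (points: arrays; bars: group means). For complex IV the miR-130a arrays lie between -0.22 and -0.16, and for complex II the miR-203 arrays between 0.21 and 0.29, outside the range of the scramble arrays.

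With miR-203, 14 subunits rose and 7 fell. Most rises were small, up to 0.45, while 3 falls exceeded 0.5, and UQCR10 of complex III fell to 0.482 times its scramble level. The 21 calls are 33.9% of the subunits, where 36.2% of all genes were called. Rises made up 22.6% of the subunits (17.3% of all genes) and falls 11.3% (18.9% of all genes), and 43 of 62 differences were above 0, with a median of 0.11 against 0.01 over all genes. For 32 subunits (51.6%, against 44.3% of all genes) the miR-203 and scramble arrays did not overlap. With only the 6 arrays compared in the model, 10 were called (7 higher, 3 lower), and without scramble replicate 3, 13 (8 higher, 5 lower).

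UQCR10 encodes a small subunit of complex III. Its log2 values were 9.99, 9.70 and 9.93 in scramble and 8.76, 8.96 and 8.74 with miR-203, a difference of -1.05 ± 0.09 (SE, adjusted p = 1.85e-06). With miR-130a they were 9.98, 9.96 and 9.89 and with miR-205 9.996, 9.99 and 9.89. The 3 miR-203 arrays lay below all 9 others, which overlapped among themselves, and UQCR10 had the largest F value of the set (F = 78, adjusted p = 6.07e-07). The 5 other complex III subunits did not follow it: UQCR11 and UQCRC2 rose, and UQCRB, UQCRC1 and UQCRQ were not called. The mean of complex III with miR-203 was -0.09 with UQCR10 and 0.10 without it, while its median was 0.05, so mean and median differ in sign.

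**Figure D3:**
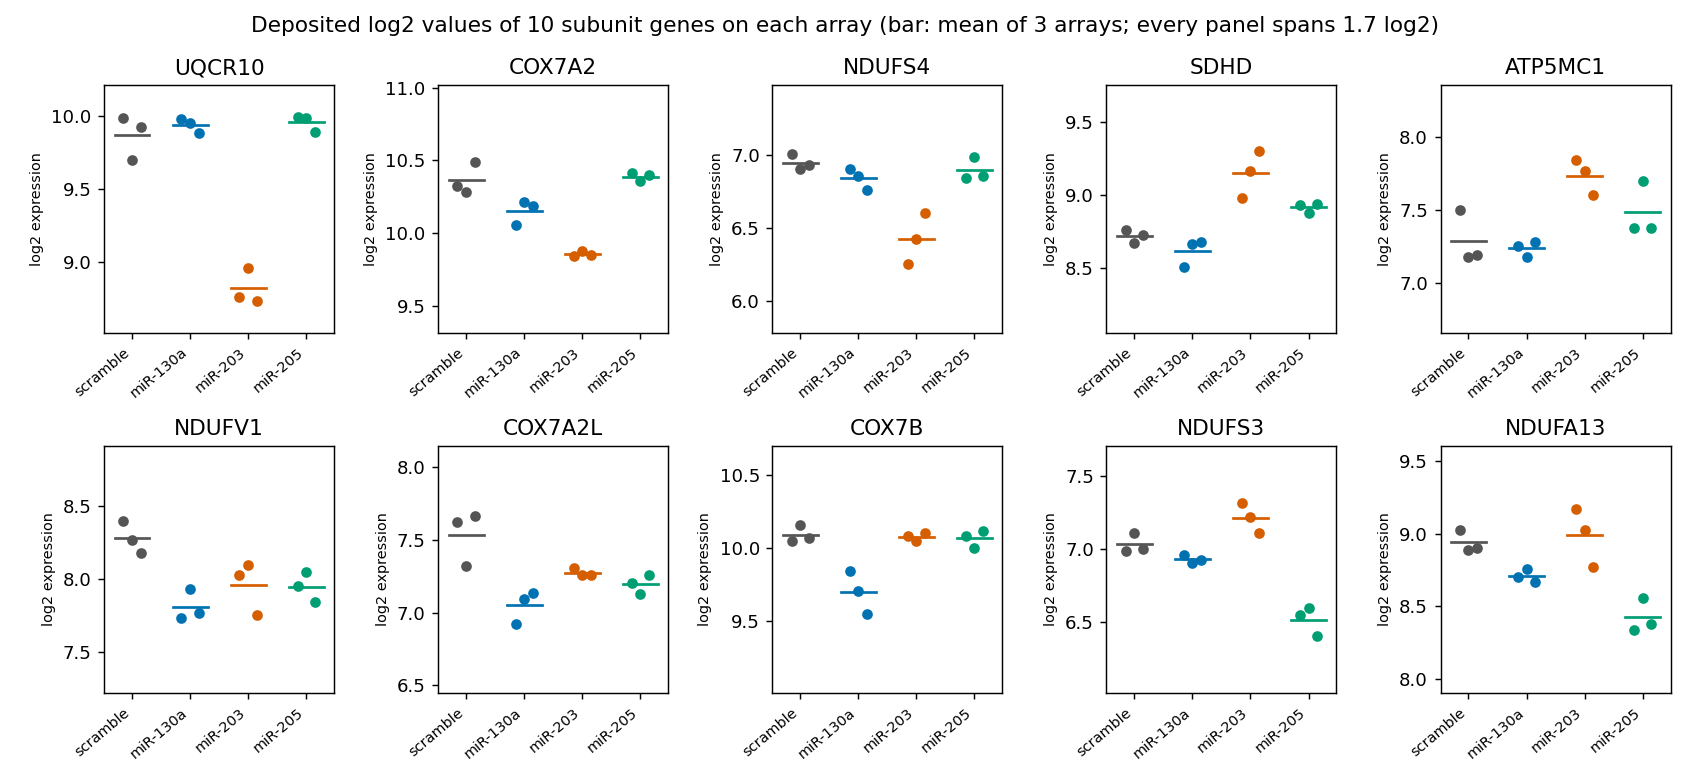
Deposited log2 values of 10 subunit genes on each of the 12 arrays, by group (points: arrays; bars: means of 3 arrays; every panel spans the same log2 range around its own centre). The miR-203 arrays of UQCR10, COX7A2 and NDUFS4 lie below all 9 others, COX7B is low with miR-130a, and NDUFS3 and NDUFA13 are low with miR-205.

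The stretch just before the annotated start of UQCR10 is printed because it holds a motif of nuclear respiratory factor 1 (NRF1), a transcription factor of many respiratory chain genes. It runs from 60 bases before to 2 after the start, on chr22:29767309-29767370 (GRCh38.p14, plus strand, RefSeq), 5′ to 3′, with the motif in capitals.
UQCR10: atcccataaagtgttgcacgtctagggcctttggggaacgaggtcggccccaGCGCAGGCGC
The capitals lie from 8 bases before to 2 bases after the start.

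COX7A2, an accessory subunit of complex IV, had values of 10.33, 10.29 and 10.49 in scramble and 9.84, 9.88 and 9.85 with miR-203 (-0.51 ± 0.07 SE, adjusted p = 0.000151). The miR-203 arrays lay below all others, and the miR-130a arrays, at 10.06, 10.22 and 10.18, lay between them and scramble. NDUFS4, an accessory subunit of complex I whose loss is a known cause of Leigh syndrome, had values of 7.01, 6.91 and 6.93 in scramble and 6.25, 6.42 and 6.60 with miR-203 (-0.52 ± 0.09 SE, adjusted p = 0.0006). The groups did not overlap, and the spread of the miR-203 arrays (SD 0.17, n = 3) was the widest of the 4 groups. The falls of UQCR10, COX7A2 and NDUFS4 passed under all 23 settings.

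The other falls with miR-203 were those of NDUFV1 (-0.32), COX7A2L (-0.26), NDUFB7 (-0.23) and NDUFAB1 (-0.22), the last of which encodes the mitochondrial acyl carrier protein, also a complex I subunit. NDUFB7 was lost without miR-203 replicate 3 (adjusted p = 0.0596) and with the mean of its probe sets, which gave -0.12 (adjusted p = 0.0728). Its other probe set lay near the lowest value, at 2.40, with a difference of 0, which by itself shrinks the mean. NDUFAB1 was lost without miR-203 replicate 3 (adjusted p = 0.088), scramble replicate 1 (0.0885) or scramble replicate 3 (0.0584), and with quantile scaling (-0.17, adjusted p = 0.0672). With only the 6 arrays compared, NDUFB7 (adjusted p = 0.0596) and NDUFAB1 (0.0853) were lost as well. COX6A1, outside the rule, fell by more than any subunit in the set with miR-203, by 2.53 ± 0.13 (SE, adjusted p = 1.96e-08). With COX6A1 counted, the median of complex IV with miR-203 was 0.04 in place of 0.07. Its mean was -0.24 with COX6A1 and -0.01 without, so mean and median differ in sign for complex IV too.

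Among the rises with miR-203, ATP5MC1 and SDHD were the largest. ATP5MC1, a further gene for the c subunit of ATP synthase, had values of 7.50, 7.17 and 7.19 in scramble and 7.84, 7.76 and 7.60 with miR-203 (0.45 ± 0.11 SE, adjusted p = 0.00684). The groups did not overlap, although scramble replicate 1 lay near the lowest miR-203 array. SDHD, which anchors succinate dehydrogenase in the inner membrane, had values of 8.76, 8.67 and 8.73 in scramble and 8.98, 9.16 and 9.30 with miR-203 (0.43 ± 0.08 SE, adjusted p = 0.00166), a 1.35-fold increase. The miR-205 arrays, at 8.93, 8.87 and 8.93, lay between these groups, and their difference from scramble was 0.20 (adjusted p = 0.11). A second SDHD probe set stayed at the lowest value, and averaging both gives 0.22.

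The other 2 tested subunits of complex II lay above 0 with miR-203 without passing the threshold. SDHC, the other membrane anchor, had values of 8.96, 9.07 and 8.96 in scramble and 9.18, 9.21 and 9.23 with miR-203 (0.21 ± 0.09 SE, adjusted p = 0.0733), with no overlap. The other SDHC probe sets gave 0.10 and 0.02, with overlapping groups, and 0.39, with no overlap. SDHA, the catalytic flavoprotein, had values of 7.55, 7.28 and 7.29 in scramble and 7.56, 7.56 and 7.42 with miR-203 (0.14 ± 0.09 SE, adjusted p = 0.22), and these groups overlapped. The mean of the 3 genes was 0.26 above scramble with miR-203, between 0.21 and 0.29 on the single arrays, while scramble arrays lay between -0.04 and 0.06. SDHB was not analysed here.

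In complex I, 6 subunits rose with miR-203. NDUFB5, an accessory subunit of the membrane arm, had values of 8.14, 7.92 and 7.999 in scramble and 8.41, 8.37 and 8.33 with miR-203 (0.35 ± 0.07 SE, adjusted p = 0.00177). NDUFS1, the largest core subunit, which carries iron-sulfur clusters, rose by 0.26 ± 0.07 (adjusted p = 0.0139), and NDUFA6, an accessory subunit, by 0.26 ± 0.07 (adjusted p = 0.0113). In each of these 3 genes the groups did not overlap, and ATP5MC1, SDHD, NDUFB5, NDUFS1 and NDUFA6 passed under every alternative in which they could be tested. NDUFA3 (0.25), NDUFB1 (0.20) and NDUFA2 (0.19) rose as well. The NDUFA3 call was lost without miR-203 replicate 1 or 2 or any single scramble array (adjusted p up to 0.0888). That of NDUFB1 was lost without miR-203 replicate 2, scramble replicate 1 or scramble replicate 2 (up to 0.0865), and that of NDUFA2 without miR-203 replicate 1 or 2 or scramble replicate 2 or 3 (up to 0.0873). The mean of NDUFA2's probe sets gave 0.10 (adjusted p = 0.12), but its other probe set stayed at the lowest value, which by itself shrinks the mean.

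Outside complexes I and II, UQCR11 (0.27), ATP5MC2 (0.23), UQCRC2, a core protein of complex III (0.20), COX7C, an accessory subunit of complex IV (0.19), ATP5F1A, the alpha subunit of F1 (0.19), and ATP5MJ, a small membrane subunit of ATP synthase (0.18), rose with miR-203. ATP synthase had 4 rises, 0 falls and a median of 0.12, with means of 0.08 to 0.13 above scramble on the single arrays. ATP5MC2 kept its call without any single array. That of UQCR11 was lost without scramble replicate 2 (adjusted p = 0.0608), that of UQCRC2 without miR-203 replicate 2 (0.0606) or scramble replicate 3 (0.0515), and that of COX7C without miR-203 replicate 1, scramble replicate 2 or scramble replicate 3 (up to 0.0759). ATP5F1A was lost without any single miR-203 array or scramble replicate 2 or 3 (up to 0.105), and ATP5MJ without miR-130a replicate 2 or 3, miR-203 replicate 1 or 2, or scramble replicate 2 or 3 (up to 0.11). With quantile scaling ATP5F1A was lost too (adjusted p = 0.0596). For UQCRC2, the probe set of largest variance gave 0.08 (adjusted p = 0.503), and for ATP5MC2 the mean of its probe sets gave 0.12 (adjusted p = 0.0608). The other ATP5MC2 probe set stayed at the lowest value, which by itself shrinks that mean.

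With miR-205, 9 subunits fell and 4 rose. The largest falls were in complex I, in NDUFS3, NDUFA13 and NDUFA8, each of which was also lower with miR-205 than with miR-130a or miR-203. The 13 calls are 21% of the subunits, where 26.1% of all genes were called, with 14.5% lower (14.8% of all genes) and 6.45% higher (11.3% of all genes). The median was -0.01, against -0.004 over all genes, and 34 of 62 differences were below 0. The share lower was that of all genes and the share higher was below it. For 20 subunits (32.3%, against 39% of all genes) the arrays did not overlap. Without miR-205 replicate 1, 8 were called (8 lower, 0 higher), and without miR-205 replicate 2 or scramble replicate 2, 8 (7 lower, 1 higher).

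NDUFS3, a core subunit of complex I's peripheral arm, had values of 6.99, 7.11 and 7.01 in scramble and 6.55, 6.60 and 6.40 with miR-205 (-0.52 ± 0.08 SE, adjusted p = 0.000297). The miR-205 arrays lay below all 9 others, and the miR-203 arrays, at 7.32, 7.22 and 7.11, were the highest group. NDUFA13, also known as GRIM-19, an accessory subunit first described as a cell death regulator, had values of 9.02, 8.89 and 8.90 in scramble and 8.34, 8.56 and 8.38 with miR-205 (-0.51 ± 0.10 SE, adjusted p = 0.00172). NDUFA8, an accessory subunit that sits in the intermembrane space, had values of 7.60, 7.41 and 7.42 in scramble and 6.99, 7.19 and 7.04 with miR-205 (-0.40 ± 0.08 SE, adjusted p = 0.00217). In both genes every miR-205 array lay below every array of the other 3 groups.

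The stretch before the start of NDUFS3 is printed because it holds the GABP motif, the core of the site of nuclear respiratory factor 2, on both strands. It runs from 120 to 61 bases before the start, on chr11:47578954-47579013 (GRCh38.p14, plus strand, RefSeq), 5′ to 3′, with both matches in capitals.
NDUFS3: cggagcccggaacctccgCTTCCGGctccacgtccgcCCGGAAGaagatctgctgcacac
The first match lies 102 to 96 bases before the start, on the opposite strand, and the second 83 to 77 bases before it.

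UQCRC1 of complex III had values of 9.06, 9.29 and 9.26 in scramble and 8.85, 8.85 and 8.71 with miR-205 (-0.40 ± 0.10 SE, adjusted p = 0.00846). ATP5F1D had values of 8.67, 8.96 and 8.80 in scramble and 8.49, 8.51 and 8.43 with miR-205 (-0.33 ± 0.08 SE, adjusted p = 0.0091). ATP5PD, a subunit of the peripheral stalk that holds ATP synthase together, had values of 10.13, 10.17 and 10.09 in scramble and 9.92, 9.86 and 9.91 with miR-205 (-0.23 ± 0.06 SE, adjusted p = 0.0147). None of these 3 pairs of groups overlapped, and the falls of NDUFS3, NDUFA13, NDUFA8, UQCRC1, ATP5F1D and ATP5PD passed under all 23 settings.

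COX5A, an accessory subunit of complex IV, fell with miR-205 (-0.24), a call lost without miR-205 replicate 1 or 2 or scramble replicate 2 or 3 (adjusted p up to 0.0886). NDUFS1 rose (0.28 ± 0.07 SE, adjusted p = 0.015), with values of 8.29, 8.27 and 8.11 against 7.93, 7.997 and 7.92 in scramble, and was lost without miR-205 replicate 1 (0.0623). NDUFB4, a membrane-arm subunit of complex I, rose by 0.27, ATP5F1A by 0.19 and UQCRC2 by 0.18. NDUFB4 was lost without miR-205 replicate 1 or 2 or scramble replicate 2 (up to 0.07). ATP5F1A was lost without any single miR-130a or miR-205 array, miR-203 replicate 2, or scramble replicate 2 or 3 (up to 0.141), and UQCRC2 without any single array other than miR-203 replicate 1 (up to 0.141). For UQCRC2, quantile scaling gave 0.14 (adjusted p = 0.125) and the probe set of largest variance 0.14 (adjusted p = 0.279). By complex, 2 rose and 4 fell in complex I, 0 and 0 in complex II, 1 and 1 in complex III, 0 and 2 in complex IV, and 1 and 2 in ATP synthase. The complex III mean was -0.03 and its median 0.06, so they differ in sign.

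NDUFV1 and COX7A2L fell with all 3 microRNAs, where 173 of all 6821 genes did (2.54%), and 0 subunits rose with all 3 (1.85% of all genes did). Since the 3 comparisons share the scramble arrays, a high scramble mean lowers all of them at once. NDUFV1 was 8.02, 8.09 and 7.75 with miR-203 (-0.32 ± 0.10 SE, adjusted p = 0.024) and 7.95, 8.04 and 7.84 with miR-205 (-0.33 ± 0.10 SE, adjusted p = 0.0275), below the lowest scramble value of 8.17 on every array. COX7A2L was 7.30, 7.26 and 7.26 with miR-203 (-0.26 ± 0.09 SE, adjusted p = 0.0436) and 7.20, 7.13 and 7.26 with miR-205 (-0.34 ± 0.09 SE, adjusted p = 0.017). All of these lay below scramble replicate 2, at 7.32, but the miR-203 arrays by little. For NDUFV1 the miR-203 call was lost without miR-203 replicate 3 (adjusted p = 0.0982) or scramble replicate 1 (0.085) or 2 (0.0504), and with array weights (-0.21, adjusted p = 0.104), and the miR-205 call without miR-205 replicate 1 (0.0682) or 3 (0.106) or scramble replicate 1 (0.0931) or 2 (0.0588). For COX7A2L the miR-205 call was lost without miR-205 replicate 2 (0.0583) or scramble replicate 1 (0.0574) or 3 (0.0752), and the miR-203 call without any of 9 arrays (every miR-203 array, scramble replicate 1 or 3, miR-130a replicate 2 or 3, miR-205 replicate 1 or 3), with an adjusted p of up to 0.164. That miR-203 call was also lost with quantile scaling (0.0659) or arrays centred on the median of tested genes (0.0717). Without the filter on dim probe sets its adjusted p was 0.0975, and with only the 6 arrays compared 0.105.

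NDUFA3, UQCR11 and ATP5MC2 were lower with miR-130a and higher with miR-203. ATP5MC2 had values of 9.70, 9.76 and 9.66 in scramble, 9.46, 9.52 and 9.48 with miR-130a, 9.97, 9.93 and 9.91 with miR-203 and 9.53, 9.59 and 9.57 with miR-205. The 4 groups did not overlap with each other, and the F value was among the 5 largest of the set (F = 21.1, adjusted p = 0.000179). UQCR11 was 9.95, 9.77 and 9.98 in scramble, 9.60, 9.76 and 9.61 with miR-130a, and 10.18, 10.20 and 10.14 with miR-203. For this gene miR-130a replicate 2 lay just under scramble replicate 2, so the gap between these groups was narrow. NDUFA3 read 7.92 on all 3 scramble arrays, 7.60, 7.72 and 7.55 with miR-130a, and 8.24, 8.23 and 8.04 with miR-203. Equal values within a group narrow its measured spread; 8 subunits and 20.9% of all tested genes have them on some arrays of a group.

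The widest split in the set was between miR-130a and miR-203, which do not share arrays with each other. Here 29 subunits were lower with miR-130a and 4 were higher. The 33 calls are 53.2% of the subunits, where 41.2% of all genes were called, with 46.8% lower (20.1% of all genes) and 6.45% higher (21.1% of all genes). All told, 52 of 62 differences were below 0, and the median was -0.18, against -0.02 over all genes. No array of one group fell within the range of the other for 46 of 62 subunits (74.2%), where this held for 52.9% of all genes. Of all called genes, 51.2% were higher with miR-130a, and 41% with arrays centred on the median of the tested genes, where 38 subunits were lower and 3 higher. By complex, lower and higher calls numbered 13 and 1 in complex I, 2 and 0 in complex II, 2 and 1 in complex III, 6 and 1 in complex IV, and 6 and 1 in ATP synthase, where all 3 tested genes of the c subunit were lower.

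Among the largest of these differences, NDUFA3 (-0.55 ± 0.08 SE, adjusted p = 0.000143), NDUFB2 (-0.54 ± 0.08 SE, adjusted p = 0.000179) and SDHD (-0.53 ± 0.08 SE, adjusted p = 0.000269) were lower with miR-130a. In NDUFB2 the miR-203 arrays, at 9.25, 9.05 and 8.999, lay above every scramble array, and those above every miR-130a array. In the opposite direction, UQCR10 was higher with miR-130a (1.12 ± 0.09 SE, adjusted p = 7.67e-07), as were NDUFS4 (0.42 ± 0.09 SE, adjusted p = 0.00226) and COX7A2 (0.30 ± 0.07 SE, adjusted p = 0.00547). All 6 passed under every alternative in which they could be tested. Over the 4 groups, miR-203 had the highest mean in 40 of 62 subunits and miR-130a in 1, and miR-130a had the lowest in 34 and miR-203 in 8. The same ranks were not counted over all genes, so no background share stands beside them.

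**Figure D4:**
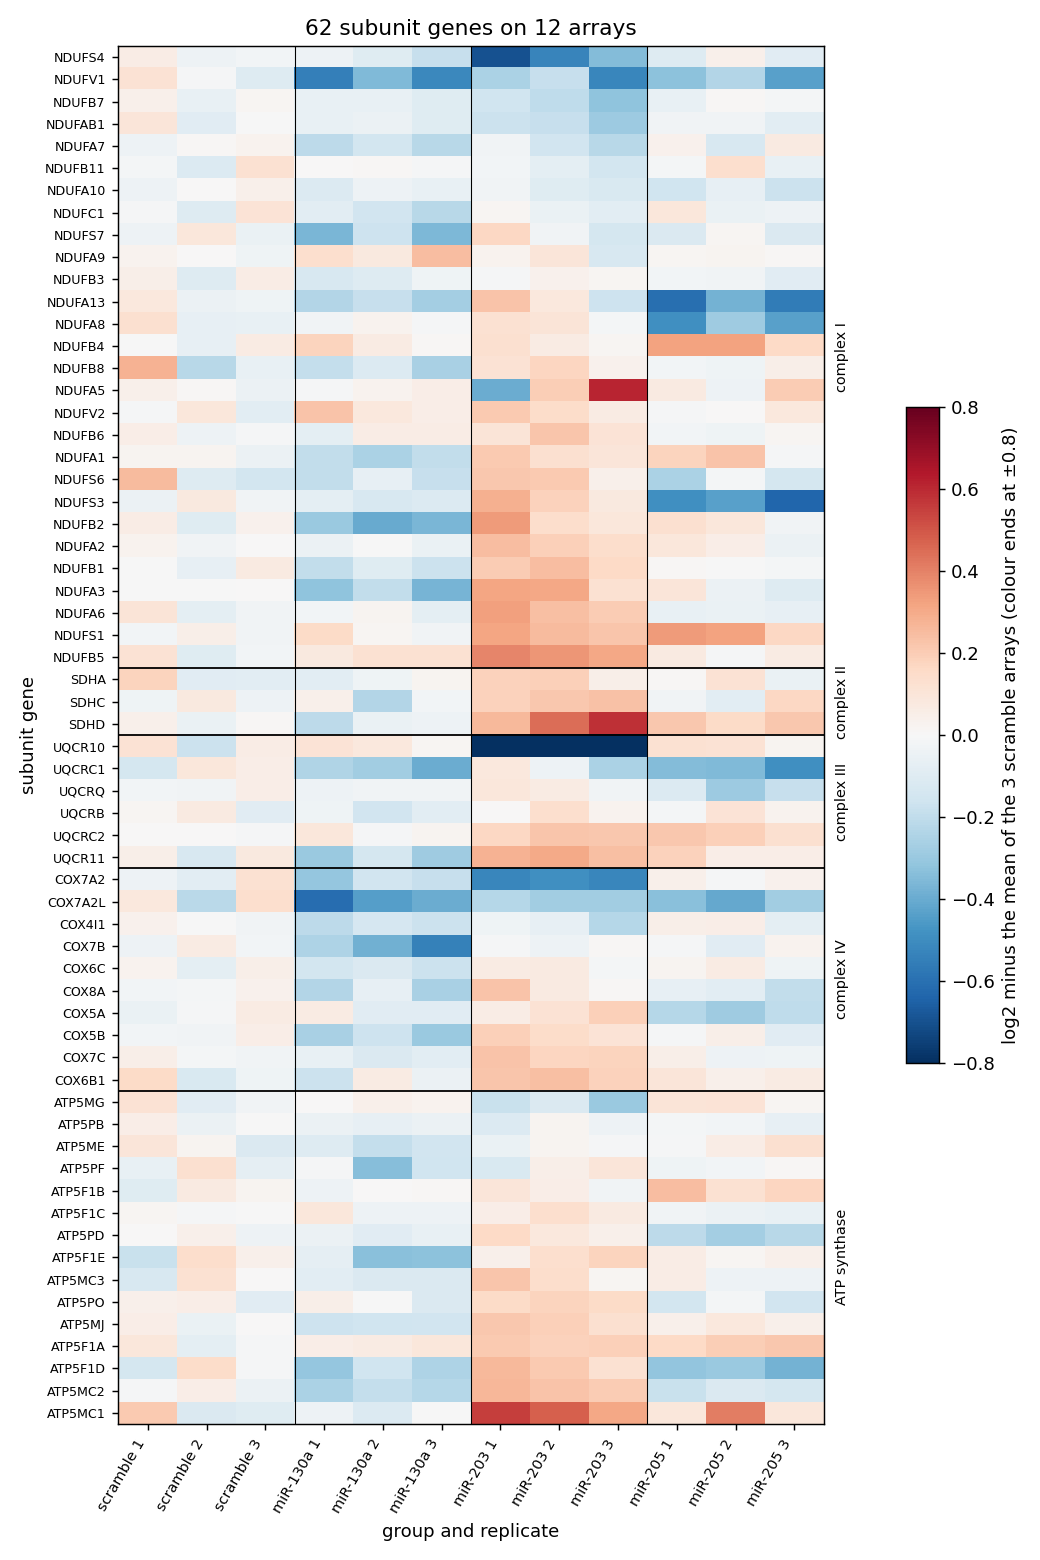
Log2 value of each of the 62 subunit genes on each of the 12 arrays minus the mean of the 3 scramble arrays (red: higher, blue: lower; the colour scale ends at 0.8 on either side), ordered by complex and, within it, by the difference with miR-203. The miR-130a columns are mostly blue, the miR-203 columns mostly red below the top genes of each complex, and UQCR10 is the darkest blue with miR-203.

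miR-203 and miR-205 differed in 23 subunits, 18 higher and 5 lower with miR-203. The 23 are 37.1% of the subunits, where 37.9% of all genes were called, with 29% higher (21% of all genes) and 8.06% lower (16.9% of all genes). For 36 subunits (58.1%, against 47.2% of all genes) the arrays did not overlap. NDUFS3 (0.70 ± 0.08 SE, adjusted p = 1.41e-05), NDUFA13 (0.56 ± 0.10 SE, adjusted p = 0.000615) and ATP5F1D (0.53 ± 0.08 SE, adjusted p = 0.000243) were the largest of the higher ones. UQCR10 (-1.14 ± 0.09 SE, adjusted p = 6.49e-07), COX7A2 (-0.53 ± 0.07 SE, adjusted p = 9.03e-05) and NDUFS4 (-0.47 ± 0.09 SE, adjusted p = 0.00114) led the lower ones.

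miR-130a and miR-205 differed in 16 subunits, 12 lower and 4 higher with miR-130a. The 16 are 25.8% of the subunits, where 33.6% of all genes were called, with 19.4% lower (15.4% of all genes) and 6.45% higher (18.2% of all genes). For 35 subunits (56.5%, against 49.7% of all genes) the arrays did not overlap. NDUFB2 (-0.42 ± 0.08 SE, adjusted p = 0.00158), COX7B and NDUFA1, a small membrane-arm subunit of complex I (-0.35, adjusted p = 0.00268), were the largest of the lower ones. NDUFS3 (0.41 ± 0.08 SE, adjusted p = 0.00106), NDUFA8 (0.40 ± 0.08 SE, adjusted p = 0.00172) and NDUFA13 (0.28 ± 0.10 SE, adjusted p = 0.0389) were higher with miR-130a. NDUFA13 was lost without any single miR-130a array, miR-203 replicate 2, or miR-205 replicate 1 or 3 (adjusted p up to 0.133). The count was 9 without miR-130a replicate 1, miR-130a replicate 3 or miR-205 replicate 1, and 25 (6 higher, 19 lower) with a trended and robust moderation. Of all called genes, 54.2% were higher with miR-130a, and 42.9% with arrays centred on the median of the tested genes, where 2 subunits were higher and 22 lower.

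A gene can be read by more than 1 probe set. Of the 62 subunits, 41 had 1 probe set with a single symbol and 21 had several, and the brightest was used. Among called subunits with another bright probe set, the other probe sets differed from scramble in the same direction in 4 of 4 cases with miR-130a, 5 of 5 with miR-203 and 2 of 2 with miR-205. Subunits that were not called could conflict. With miR-205 the brightest SDHC probe set gave 0.02 and the others -0.25, -0.36 and -0.03, the -0.25 and -0.36 without overlap. For NDUFB8 the brightest gave -0.001 with miR-205 and 0.11 with miR-203. Its others gave -0.26 (no overlap) and 0.10 with miR-205, and -0.16 and 0.44 with miR-203. The 0.10 and 0.44 came from a dim probe set with a mean of 2.84, near the array median. The -0.26 and -0.16 came from a brighter probe set with a mean of 7.03.

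The promoters of 55 of the 62 subunits were matched in the RefSeq table (GRCh38.p14), each as 250 bases before to 50 after an annotated start, and 9 of them have several starts, any of which counted. Motifs were searched on both strands. The NRF1 motif (the letters in capitals in the UQCR10 stretch, with any base at the sixth place) was found in 13 subunits (23.6%), and in 15% of tested genes and 6.98% of all genes in the table. The GABP motif CCGGAAG was found in 17 subunits (30.9%, against 24.8% and 12.2%). The YY1 motif AANATGGC, named for the factor YY1, was found in 22 subunits (40%, against 15.3% and 7.97%). In all, 38 subunits held at least 1 of the 3 and 17 held none. UQCR10 and NDUFS3 also held the YY1 letters, 28 to 35 and 16 to 23 bases after the start. A match is a description of the letters and no evidence of binding in these cells.

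Genes that build or feed the chain were counted in lists from general knowledge. Of 32 assembly factors, which insert subunits or cofactors, 14 rose and 3 fell with miR-203, with a median of 0.22, 2 rose and 3 fell with miR-130a, and 1 rose and 5 fell with miR-205. The called shares were 53.1%, 15.6% and 18.8% in that order, against 36.2%, 23.6% and 26.1% of all genes, and with miR-203 43.8% rose, against 17.3% of all genes. With miR-203, COA7, a complex IV assembly factor, rose by 0.69 ± 0.12 (adjusted p = 0.000868) and OXA1L, which inserts proteins into the inner membrane, by 0.57 ± 0.08 (adjusted p = 0.000222). NUBPL, which delivers iron-sulfur clusters to complex I, fell (-0.81 ± 0.13 SE, adjusted p = 0.000459), and COX15, an enzyme of heme A synthesis, fell with miR-203 (-0.51, adjusted p = 0.00663) and with miR-205 (-0.57, adjusted p = 0.0046). SURF1, a complex IV assembly factor, fell with miR-130a (-0.28, adjusted p = 0.012) and miR-205 (-0.23, adjusted p = 0.0288).

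Of 15 genes of electron carriers and ubiquinone synthesis, 5 rose and 0 fell with miR-203, with a median of 0.22, 1 rose and 0 fell with miR-130a, and 2 rose and 1 fell with miR-205. The called shares, 33.3%, 6.67% and 20%, lay near or below those of all genes (36.2%, 23.6% and 26.1%). By direction, rises with miR-203 made up 33.3%, against 17.3% of all genes, and falls 0%, against 18.9%. PDSS2, a subunit of the enzyme that makes the ubiquinone side chain, rose by 0.59 ± 0.09 with miR-203 (adjusted p = 0.000344), and its partner PDSS1 rose by 0.29 with miR-203 (adjusted p = 0.0129) and 0.49 with miR-130a (adjusted p = 0.000697). Of 16 regulators of mitochondrial genes, 3 rose with miR-203, YY1 (0.44 ± 0.07 SE, adjusted p = 0.000621), POLG2, a subunit of the mitochondrial DNA polymerase (0.55 ± 0.11 SE, adjusted p = 0.00177), and TFAM, which packages mitochondrial DNA (0.39 ± 0.11 SE, adjusted p = 0.011), for which the groups overlapped. With miR-130a 1 rose and 1 fell, and with miR-205 0 passed limma's threshold. These shares, 18.8% with miR-203, 12.5% with miR-130a and 0% with miR-205, were below those of all genes.

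The mitochondrial ribosome translates the subunits encoded by mitochondrial DNA. Of its 49 tested proteins, 1 rose and 11 fell with miR-130a (median -0.10), 11 rose and 6 fell with miR-203 (median 0.00) and 0 rose and 13 fell with miR-205 (median -0.16). The called shares of 24.5%, 34.7% and 26.5% were close to those of all genes (23.6%, 36.2% and 26.1%), while falls made up 22.4% with miR-130a and 26.5% with miR-205, against 11.6% and 14.8% of all genes. The falls were led by MRPS35 with miR-130a (-0.59 ± 0.08 SE, adjusted p = 0.000111) and MRPL23 with miR-205 (-0.61 ± 0.07 SE, adjusted p = 6.62e-05). In the tricarboxylic acid cycle and pyruvate dehydrogenase, which supply NADH and succinate, 2 of 22 genes rose and 3 fell with miR-130a, 6 rose and 3 fell with miR-203, and 4 rose and 2 fell with miR-205. These are 22.7%, 40.9% and 27.3% of the list, near the shares of all genes just given. DLST, a subunit of 2-oxoglutarate dehydrogenase, fell with miR-130a (-0.67 ± 0.09 SE, adjusted p = 0.000136), IDH3B, a subunit of the NAD-dependent isocitrate dehydrogenase, with miR-203 (-0.71 ± 0.08 SE, adjusted p = 1.82e-05), and IDH2, the NADP-dependent enzyme, with miR-205 (-0.55 ± 0.10 SE, adjusted p = 0.00111).

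Of 22 genes of protein import into mitochondria, 1 rose and 3 fell with miR-130a, 4 rose and 3 fell with miR-203, and 2 rose and 3 fell with miR-205. The called shares, 18.2%, 31.8% and 22.7%, were below those of all genes (23.6%, 36.2% and 26.1%). TIMM17B, a subunit of the inner membrane translocase, rose with each (0.80, 0.96 and 0.69 with miR-130a, miR-203 and miR-205, adjusted p = 2.22e-05, 3.3e-06 and 7.95e-05), the comparisons sharing the scramble arrays. TOMM20, a receptor of the outer membrane, fell with miR-130a (-0.71 ± 0.08 SE, adjusted p = 1.87e-05), and TIMM10, a chaperone of the intermembrane space, with miR-205 (-0.92 ± 0.12 SE, adjusted p = 0.000121). These lists describe the surroundings of the subunits and were not tested as sets, and the alternative settings were run for the subunits alone.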

How the data were processed

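Total RNA of 12 LNCaP samples was measured on expression arrays. The authors deposited 1 table of log2 values for 22277 probe sets, 1 column per array, each named for its sample. The submitters' processing notes name RMA, limma and R 2.9.0 without saying what each did, and how background and scale were set is not given in the sources used here. Normalization between arrays removes any shift common to most genes, so differences are relative to the typical gene. Of the probe sets, 19070 have 1 symbol in the platform annotation, 1043 several and 2164 none, and only the first were used. Each of 11963 genes was read by its probe set of highest mean over the 12 arrays, and 6821 genes were tested, those whose probe set exceeded the median of the array on 3 or more arrays. A further 9 probe sets with several symbols touch the family names and were not used.

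limma 3.58.1 in R 4.3.3 fitted group means over all 12 arrays with eBayes moderation (8 residual and 4.84 prior degrees of freedom). Tests were two-sided, p-values were adjusted by Benjamini-Hochberg over the 6821 genes per comparison with a threshold of 0.05, and a moderated F-test compared the 4 groups at once. An exact permutation of 3 arrays against 3 cannot give p under 0.1. The fit was tested on simulated data. The number of arrays limits the precision. Replicate numbers were not used to pair arrays, and the labels do not say whether equal numbers share a batch. Between groups, residuals of arrays with the same number correlated at -0.112 to 0.313, above 0.1 in 3 of 18 pairs. For arrays with other numbers this was -0.284 to 0.163, above 0.1 in 2 of 36 pairs. Named members are the largest differences in each direction per comparison, those called alike in all 3 comparisons with scramble, the largest F values, the SDH genes and, per other list, the largest differences. For each comparison with scramble every called member is named, which goes beyond that rule. Members and lists were chosen with earlier results of these data known. Alternatives covered the choice of probe set, the filter, scaling, moderation, array weights, a replicate block, the arrays in the model and each array left out in turn.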

Additional observations from a re-analysis of the deposited data

How the results depend on the processing

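Summary counts and medians were recomputed under 12 other settings and with each of the 12 arrays left out. Of 725 values compared, 31 moved by more than the spread between replicates or, for counts, by over 1.5 times. None of the 46 calls against scramble changed sign, and 4 of 12 with miR-130a, 8 of 21 with miR-203 and 6 of 13 with miR-205 passed under every setting in which they could be tested. Medians near 0 did change sign with miR-205, over all settings from -0.02 to 0.021 (all subunits), -0.036 to 0.016 (complex I), -0.003 to 0.114 (complex II), -0.026 to 0.013 (complex IV) and -0.037 to 0.038 (ATP synthase). With 1 array left out, 4 to 13 subunits were called with miR-130a, 13 to 21 with miR-203, 8 to 14 with miR-205 and 9 to 19 between miR-130a and miR-205. Medians by complex then ranged with miR-130a from -0.107 to -0.047 (complex I), -0.094 to -0.029 (complex II), -0.075 to -0.048 (complex III), -0.218 to -0.157 (complex IV) and -0.099 to -0.055 (ATP synthase), with miR-203 from 0.041 to 0.133 (complex I), 0.191 to 0.25 (complex II), 0.023 to 0.074 (complex III), 0.037 to 0.094 (complex IV) and 0.093 to 0.15 (ATP synthase), and with miR-205 from -0.003 to 0.114 (complex II), 0.016 to 0.085 (complex III) and -0.037 to 0.03 (ATP synthase). With only the 6 arrays compared, 10 subunits were called with miR-203, a model of fewer samples, and with a trended and robust eBayes, 25 were called between miR-130a and miR-205. Centring arrays on the median of tested genes gave medians of -0.119 (all subunits, miR-130a), -0.095, 0.144 and 0.02 (ATP synthase, miR-130a, miR-203 and miR-205). Averaging a gene's probe sets gave -0.14 (complex IV, miR-130a), 0.093 (complex III, miR-203) and 0.038 (ATP synthase, miR-205), and the probe set of largest variance gave -0.094 (ATP synthase, miR-130a) and 0.385 (complex II, miR-203). For complex IV with miR-203, no filter gave 0.023 and counting COX6A1 gave 0.042. Where no construction shows it, the cause was not tested. With the replicate number as a block, 10, 20 and 11 subunits were called with miR-130a, miR-203 and miR-205. Whether the numbers pair the arrays is not given. NDUFA4, whose current symbol COXFA4 does not meet the naming rule, was not counted with any complex in any setting. Medians near 0, and calls with an adjusted p near 0.05, are limited by 3 arrays a group.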
